A study of Mus musculus with 34 samples.

Results

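BRD6688 is a small-molecule inhibitor of the histone deacetylases HDAC1, HDAC2 and HDAC3 that the study describes as kinetically selective for HDAC2. Its effect on alternative splicing and gene expression was measured by polyA+ RNA sequencing in N2A (Neuro-2A) cells, an established mouse neuroblastoma line. The 2 BRD6688 libraries (A and B, 10 µM for 24 h in 0.4% DMSO) were set against the 3 libraries of cells kept in 0.4% DMSO alone (A, B and C), and these 5 libraries were all those of either treatment among the 34 of the series. Every splicing event in the deposited table was compared over these libraries, and every gene over 1 merged expression value per condition. BRD4884, also described as selective for HDAC2, had 2 libraries at the same dose and time and served for a direct comparison, while CI-994 (5 µM) and Vorinostat (2.5 µM) were given at other doses. The doses come from the study and the treatments and replicate letters from the sample labels. All groups share the cell line, the vehicle and the duration, and the methods call the 2 libraries of an HDAC inhibitor biological replicates. BRD6688 had been taken forward by the study from RT-PCR assays in which it raised neural microexons, so a rise of the assayed microexons is not independent evidence.

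Histone deacetylases remove acetyl groups from lysines of histones and other proteins. The class I enzymes HDAC1, HDAC2 and HDAC3 work within corepressor complexes such as NuRD, Sin3, CoREST and NCoR, and their inhibition raises histone acetylation and changes transcription of many genes. Microexons are very short cassette exons, of up to 27 nt here, most of which keep the reading frame and alter short surface stretches of proteins in vesicle traffic, adhesion and the cytoskeleton. Neurons include many of them through the SR-related proteins Srrm4 and Srrm3, whereas the polypyrimidine tract protein Ptbp1 represses neural exons.

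Splicing was expressed as percent spliced in (PSI), the share of transcripts of an event that carry the exon, use the splice site or keep the intron. Reads over exon events ranged from 37427027 in DMSO library C to 75978445 in DMSO library A, with 59477147 and 59384968 in BRD6688 A and B, and 593 to 686 microexons passed the coverage and balance filters in each of these 5 libraries. Over 2400 exons of intermediate inclusion, the median absolute difference in PSI was 3.23 to 3.67 between DMSO libraries and 4.12 between the BRD6688 libraries, against 5.4 to 6.03 between a BRD6688 and a DMSO library. Over the 137 microexons among them the same medians were 3.09 to 3.4, 3.84 and 6.95 to 9.07. Every BRD6688 library thus stood farther from every DMSO library than replicates stood from each other.

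The microexons that carried the largest rises, and those that went the other way, are short runs of coding sequence. A sequence could be read for 65 of 78 microexons looked up, without converting coordinates. Chromosome, strand, exon length and both flanking intron lengths were matched to coding exons of GENCODE vM21 (GRCm38). The microexon is in capitals below and the 15 nt of spliced transcript on each side are in lower case, 5′ to 3′. The first 8 are among the 12 largest rises and the last 3 are among the 5 microexons called lower. Positions are given in the table's build (mm9).
L1cam, 12 nt, chrX:71100991-71101002: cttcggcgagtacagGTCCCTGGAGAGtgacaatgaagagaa
Snx14, 27 nt, chr9:88295561-88295587: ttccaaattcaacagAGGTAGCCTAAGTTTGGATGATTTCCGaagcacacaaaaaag
Agrn, 12 nt, chr4:155543655-155543666: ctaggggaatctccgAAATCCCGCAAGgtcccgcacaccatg
Zfyve27, 21 nt, chr19:42260110-42260130: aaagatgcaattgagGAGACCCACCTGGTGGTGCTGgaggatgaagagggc
Slit2, 24 nt, chr5:48612206-48612229: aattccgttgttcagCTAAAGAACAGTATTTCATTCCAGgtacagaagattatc
Pacsin2, 6 nt, chr15:83214053-83214058: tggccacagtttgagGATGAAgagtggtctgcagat
Spna2 (Sptan1), 15 nt, chr2:29869678-29869692: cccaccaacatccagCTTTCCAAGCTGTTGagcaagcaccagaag
Ergic3, 15 nt, chr2:155841113-155841127: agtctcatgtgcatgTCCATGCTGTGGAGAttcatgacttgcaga
Vps29, 12 nt, chr5:122806803-122806814: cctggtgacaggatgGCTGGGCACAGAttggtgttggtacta
Sgce, 27 nt, chr6:4640469-4640495: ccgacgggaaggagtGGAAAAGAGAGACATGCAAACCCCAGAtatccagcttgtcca
Iffo1, 9 nt, chr6:125101813-125101821: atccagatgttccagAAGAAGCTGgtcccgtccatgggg
The plus strand holds Zfyve27, Slit2, Spna2, Ergic3, Vps29 and Iffo1, and the minus strand the other 5. All these lengths are multiples of 3. Among the microexons described below, the Clasp2, Ppfia2, Mtss1l and Cyth1 microexons found no such match.

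Microexons moved mostly towards inclusion with BRD6688. A call required a difference of 10 PSI or more between group means, and a posterior above 0.95 that the group with the higher mean was the higher one, with the inclusion and exclusion reads of each library as data. By this rule 64 of 628 tested microexons were called higher (10.2%) and 5 were called lower (0.796%). Of the 64, 49 passed the filters in all 5 libraries, in 48 of these both BRD6688 values lay above all 3 DMSO values, and 6 rested on 1 BRD6688 library. Of the 5 called lower, 4 passed in all libraries and 3 did not overlap DMSO. Overlap was counted only among called microexons, whose group means differ by 10 PSI or more, so these counts are not independent of the call.

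Of 58659 longer cassette exons tested, 425 were called higher (0.725%) and 216 lower (0.368%). Most of them sat at either end of the scale, since 54010 had a DMSO mean above 90 and 1764 one below 10. Among exons with a DMSO mean PSI of 10 to 90, which can move either way, 56 of 166 microexons were called higher (33.7%) and 4 lower (2.41%), and 409 of 2885 longer exons were called higher (14.2%) and 128 lower (4.44%). The mean PSI was higher with BRD6688 for 138 of these 166 microexons (83.1%). Over all 166 the median difference was 7.45 PSI, and the middle 50% of the differences ran from 2.92 to 12.5. The difference between microexons and longer exons was not tested.

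**Figure D1:**
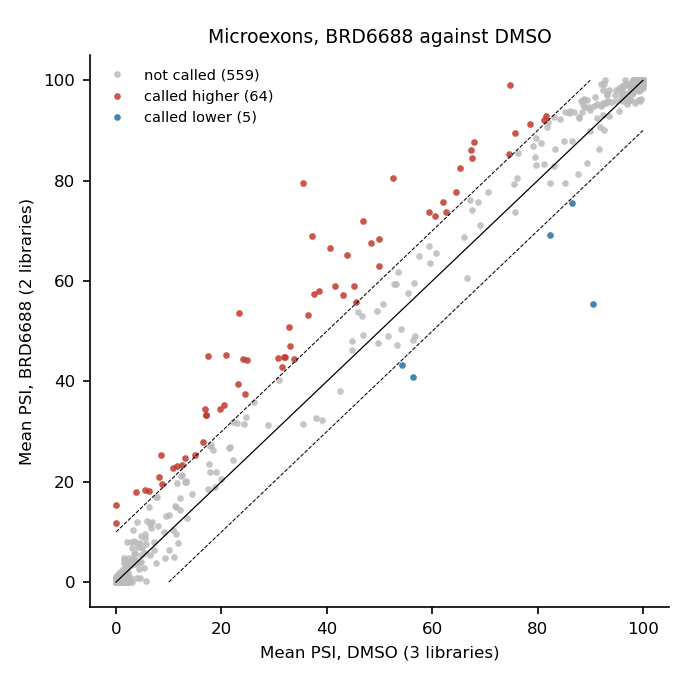
Mean PSI of each of the 628 tested microexons with DMSO (x axis, 3 libraries) and with BRD6688 (y axis, 2 libraries), in percent. Red points are the 64 called higher, blue points the 5 called lower and grey points those not called, with a solid line at equality and dashed lines 10 PSI away. The red points lie mainly between 10 and 80 PSI in DMSO.

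The posterior weighs reads and takes the spread between libraries only through the mean, so the same events were also tested with limma against that spread, on the log2 odds of inclusion over the 7 libraries of DMSO, BRD6688 and BRD4884. Over all 178168 events that passed in all 7 libraries, 0 were called (0.0%) at a Benjamini-Hochberg adjusted p below 0.05, whereas 16663 had an unadjusted p below 0.05 (9.35%). After that result 6 further limma fits were made, limited to events with a mean PSI of 2 to 98, 5 to 95 or 10 to 90, each on log2 odds and on PSI itself. They called 5 to 225 events with a difference of at least 10 PSI, of which 2 to 26 were microexons called higher and 0 to 1 microexons called lower. In the fit on log2 odds with a mean PSI of 10 to 90, 156 of 7438 events were called (2.1%). These comprised 19 of 137 microexons higher (13.9%), 1 microexon lower (0.73%), 75 of 2263 longer cassette exons higher (3.31%) and 12 lower (0.53%). Adjusted p-values of single events against DMSO below are from this fit, and the range beside each covers the 6 limited fits. All 6 were made with the result of the first in view, and neither the values nor the ranges include the first fit. In the first fit the limma adjusted p was 0.335 for Spna2, 0.393 for L1cam and 0.681 for Psap, which are described below.

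In every event class, the largest rises and falls named were taken from called events with values in all 5 libraries and no overlap between groups. The lack of overlap in these events follows from their choice and is not further evidence. The largest rise among microexons with values in all 5 libraries was in Clasp2, which binds growing microtubule ends. Its 24-nt microexon (chr9:113767699-113767722) had a PSI of 43.4, 27.9 and 40.4 in DMSO A, B and C and of 78.8 and 59.2 in BRD6688 A and B. Both treated values lay above all controls, but they were farther apart than the controls. The difference was 31.8 PSI, with a limma adjusted p of 0.0731 (0.0255 to 0.304), so this rise was called by the posterior rule and not by limma at a mean PSI of 10 to 90. The other 24-nt Clasp2 microexon tested stood at 75.2 to 82.9 in DMSO and 82.6 to 83.5 with BRD6688 and was not called.

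Other adhesion and cytoskeleton genes had microexons with tighter replicates. L1cam encodes a neural cell adhesion molecule, and its 12-nt microexon had a PSI of 42.6, 41.4 and 38.1 in DMSO and of 65.3 and 67.8 with BRD6688. No value of either group came near the other, and the difference of 25.8 PSI had a limma adjusted p of 0.00178 (0.000178 to 0.0777). Agrn encodes agrin, the proteoglycan that organises the neuromuscular synapse, and its 12-nt microexon had a PSI of 18.4, 20 and 23.9 in DMSO and 48.2 and 42.3 with BRD6688. This difference of 24.5 PSI had a limma adjusted p of 0.00832 (0.0017 to 0.141). The α-spectrin gene Spna2, whose product lines the cell membrane, had the most reproducible shift of the 12 largest rises. Its 15-nt microexon stood at 68.3, 69.3 and 66.1 in DMSO and at 87.5 and 88.0 with BRD6688, a difference of 19.8 PSI with a limma adjusted p of 0.000248 (0.000135 to 0.0253), below 0.05 in all 6 limited fits.

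The liprin Ppfia2, a scaffold of the presynaptic active zone, had a 9-nt microexon (chr10:106319792-106319800) with a PSI of 15.01, 21.6 and 15.9 in DMSO and 48.4 and 41.8 with BRD6688. The groups were well apart, on 57 to 117 reads per library, and the difference of 27.6 PSI had a limma adjusted p of 0.058 (0.0178 to 0.277). The 9-nt microexon of Mtss1l (chr8:113251729-113251737), a protein that bends membranes and binds actin, stood at 42.8, 55.9 and 59.1 in DMSO and 83.8 and 77.3 with BRD6688. Its difference was 27.95 PSI, with a limma adjusted p of 0.0683 (0.0394 to 0.289). In the list of adhesion and cytoskeleton genes, 11 of 50 tested microexons were called higher (22%) and 0 lower, beside 10.2% higher over all microexons tested. Of those with a DMSO mean PSI of 10 to 90, 10 of 22 were called higher, beside 56 of 166 over all such microexons (33.7%). Members of this and the later lists of microexon genes were chosen with earlier results of these data known, so these shares are not independent evidence. The list had a median difference of 2.02 PSI, against 0.207 over all microexons tested. Beside those named, its called members included Abi2, Ank3, Clasp1, Dock9 and Lphn2.

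In the list of endocytosis and vesicle traffic genes, 10 of 30 tested microexons were called higher (33.3%, beside 10.2% over all microexons) and 0 lower, with a median difference of 4.56 PSI. Of its 16 microexons with a DMSO mean PSI of 10 to 90, 9 were called higher, beside 33.7% over all such microexons. Snx14, a sorting nexin, had a 27-nt microexon at 51.7, 46.9 and 42.4 PSI in DMSO and at 71.5 and 72.3 with BRD6688, a difference of 24.96 with a limma adjusted p of 0.0161 (0.00304 to 0.19). Picalm, an adaptor of clathrin-coated pits, had a 24-nt microexon at 30.5, 34.6 and 33.6 in DMSO and 50.9 and 50.7 with BRD6688 on at least 1321 reads per library, with a limma adjusted p of 0.00161 (0.000154 to 0.0636). In both genes replicates stood close together and the groups apart. Ergic3, which cycles between the endoplasmic reticulum and the Golgi, had values of 33.9, 39.8 and 42.0 in DMSO and of 64.1 and 52.1 with BRD6688, a difference of 19.5 with a limma adjusted p of 0.0561 (0.0194 to 0.286). The remaining called members were in Atp2c1, Exoc1, Rab3gap1, Sh3glb1, Synj1, Trappc9 and Vti1a, with differences of 11.3 to 16.3 PSI, and Atp2c1 overlapped DMSO.

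Further genes stood among the 12 largest rises. Pacsin2, an F-BAR protein of endocytosis, had a 6-nt microexon at 37.5, 34.6 and 40.5 PSI in DMSO and 59.4 and 55.5 with BRD6688, on 965 to 2081 reads per library. The difference was 19.9, with a limma adjusted p of 0.00447 (0.000749 to 0.0916). Slit2, an axon guidance ligand, had a 24-nt microexon at 25.3, 21.3 and 25.8 in DMSO and 44.9 and 44.0 with BRD6688, a difference of 20.3 with a limma adjusted p of 0.00532 (0.000749 to 0.112). Zfyve27 (protrudin), which promotes neurite growth, stood at 46.7, 37.5 and 47.4 in DMSO and 66.1 and 64.3 with BRD6688. Its difference of 21.3 PSI had a limma adjusted p of 0.0975 (0.0278 to 0.373).

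**Figure D2:**
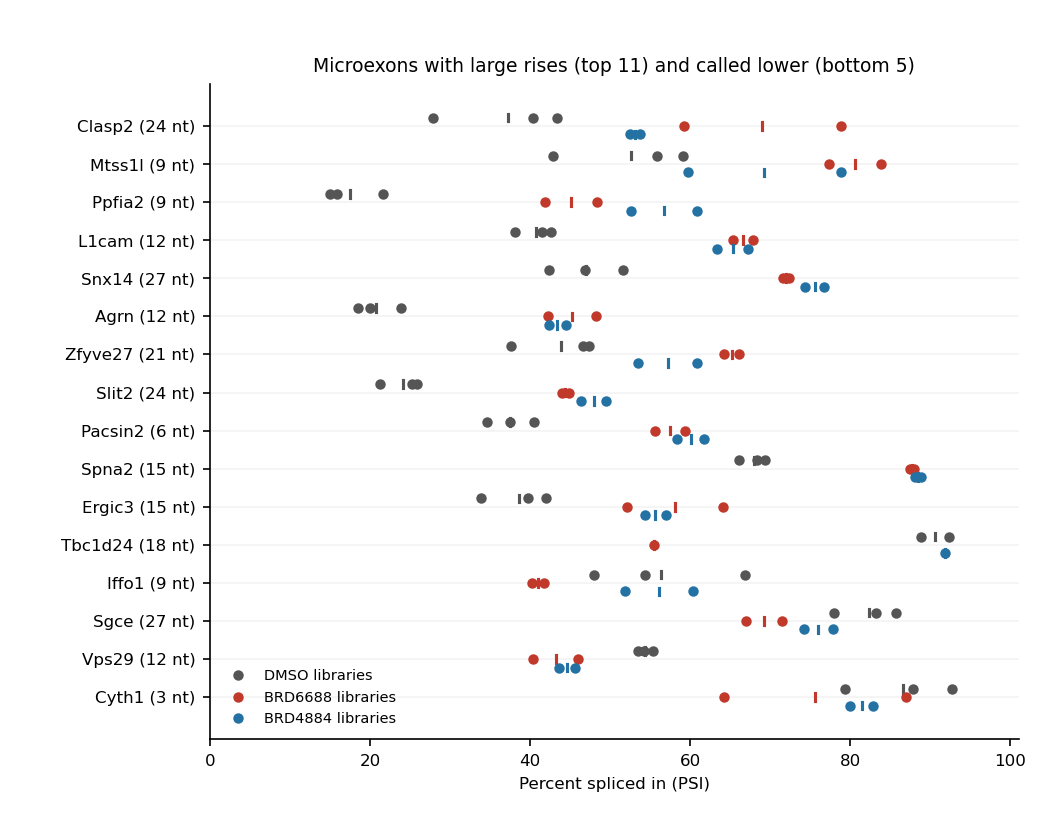
PSI (x axis, percent) of 11 of the 12 microexons with the largest rises and of the 5 called lower, 1 row each, in the DMSO (grey), BRD6688 (red) and BRD4884 (blue) libraries. Each point is a library and each bar a group mean. Rises were ranked among called microexons with values in all 5 libraries and no overlap with DMSO. The red points lie to the right of all grey points in the upper 11 rows and to their left in the lower 5 except Cyth1, where 1 red point lies among the grey.

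Kinase and signalling genes had 6 of 17 tested microexons called higher (35.3%, beside 10.2% over all microexons) and 0 lower, with a median difference of 2.6 PSI. Of the 6 with a DMSO mean PSI of 10 to 90, 4 were called higher, beside 33.7% over all such microexons. The 18-nt microexon of Src, which makes the neuronal form of this tyrosine kinase, stood at 14.4 and 26.5 in DMSO A and B and at 25.2 and 45.3 with BRD6688, so the groups overlapped. Kcnma1, a calcium-activated potassium channel, had a 12-nt microexon with a PSI of 0 in all 3 DMSO libraries, which at the fewest reads of a library (34) allows up to 8.82 PSI by counting error alone, and of 11.5 and 19.2 with BRD6688. Kcnq5, a voltage-gated potassium channel, showed the largest difference of all called microexons, 44.1 PSI, but from 42.8 and 28.2 in DMSO A and B to 79.6 in 1 BRD6688 library. Agap1, Mark3 and Mast2 were the other called members. The list of chromatin and transcription genes had 2 of 11 called higher (18.2%, beside 10.2%) and 1 lower. Of its 7 microexons with a DMSO mean PSI of 10 to 90, 2 were called higher, beside 33.7% over all such microexons, so this list did not stand above that share. Its called members were Mef2a, Eif4g1 and, as the lower call, Tbc1d24, of which the last 2 act in translation and in synaptic vesicle traffic and not in transcription. Mef2a, a transcription factor of neurons and muscle, had a 24-nt microexon at 12.4 to 17.6 in DMSO and 28.9 and 21.95 with BRD6688. Eif4g1, the scaffold of translation initiation, had a 21-nt microexon at 47.3, 47.5 and 50.2 in DMSO and 66.4 and 68.7 with BRD6688, with a limma adjusted p of 0.00127 (0.000135 to 0.0605).

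The most deeply covered of the called microexons, singled out after its values were seen, was the 9-nt microexon of Psap (chr10:59760285-59760293), the precursor of lysosomal saposins. On 6088 to 16754 reads per library it stood at 45.7, 44.9 and 45.8 PSI in DMSO and at 55.4 and 56.2 with BRD6688. The difference of 10.3 PSI was the smallest among the 64 and had a limma adjusted p of 0.000248 (2.69e-05 to 0.0253). Mef2a (10.4) and Clasp1 (10.6) also lay near the threshold of 10.

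The study assayed neural exons of 15 genes by RT-PCR. These genes hold 17 tested microexons, which include some that are not the assayed exon, and 8 were called higher here (47.1%, beside 10.2% over all microexons) and 0 lower. Of the 13 with a DMSO mean PSI of 10 to 90, 8 were called higher, beside 33.7% over all such microexons. The genes were chosen by the study. The 8 included those of Clasp2, Ergic3, L1cam, Lphn2, Mast2, Snx14 and Trappc9. The 12-nt microexon of Lphn2, an adhesion receptor, stood at 16.95, 15.1 and 18.5 PSI in DMSO and 35.0 and 33.9 with BRD6688, with a limma adjusted p of 0.0238 (0.00948 to 0.236). Other microexons of these genes differed by less than 10 PSI. The 21-nt Mef2d microexon, the exon of the screening reporter, stood at 89.5, 88.7 and 88.7 in DMSO and 94.5 and 95.1 with BRD6688. Pus7 (pseudouridine synthase) stood at 14.9, 11.7 and 10.2 and then 20.9 and 21.5, and Zmynd8 (a reader of acetylated histones) at 52.3, 53.4 and 49.2 and then 50.6 and 47.6. In Mef2d and Pus7 both treated values lay above all controls, and in Zmynd8 they overlapped.

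Few microexons went down. The 12-nt microexon of Vps29, a subunit of the retromer that recycles receptors from endosomes, had a PSI of 53.5, 54.2 and 55.4 in DMSO and of 40.4 and 46.0 with BRD6688. It had 1909 to 3788 reads per library, and the difference of −11.2 PSI had a limma adjusted p of 0.0171 (0.00469 to 0.183), the only lower call of a microexon in that fit. Sgce, ε-sarcoglycan, stood at 85.8, 78.0 and 83.2 in DMSO and 67.0 and 71.5 with BRD6688 (27 nt, limma adjusted p = 0.115, range 0.0734 to 0.395). Iffo1, a protein of the intermediate filament family, stood at 54.3, 48.0 and 66.8 in DMSO and 40.2 and 41.7 with BRD6688 (9 nt, limma adjusted p = 0.414, range 0.25 to 0.638). Neither was called by limma. Tbc1d24, which acts in synaptic vesicle traffic, fell from 88.9 and 92.3 to 55.5 by the posterior rule, but in 1 BRD6688 library on 35 to 57 reads. The 3-nt microexon of Cyth1, a guanine nucleotide exchange factor, overlapped DMSO with values of 87.9, 79.4 and 92.6 against 64.2 and 87.0, and its direction turned without BRD6688 library A, to a difference of 0.353 PSI.

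In length and introns the called microexons were near those of intermediate DMSO inclusion. Of the 64 called higher, 62 had a length divisible by 3 (96.9%), against 468 of all 628 tested (74.5%) and 151 of the 166 of intermediate DMSO inclusion (91.0%). Their median length was 19.5 nt, against 15 nt over all tested and 18 nt over those of intermediate inclusion. Among microexons of 3 to 9 nt, 7 of 164 were called higher (4.27%). The shares were 18 of 155 for 10 to 15 nt (11.6%), 17 of 110 for 16 to 21 nt (15.5%) and 22 of 199 for 22 to 27 nt (11.1%). Within intermediate inclusion these shares became 22.2%, 40.0%, 36.8% and 32.8%. Their DMSO inclusion had a median of 33.4 PSI, and the flanking introns had medians of 1408 nt upstream and 1410.5 nt downstream, near those of all tested microexons (1354 and 1289 nt).

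Longer cassette exons that rose included several with large shifts. The 141-nt exon of Ng23 (chr17:35164389-35164529, minus strand) went from 18.3, 25.7 and 17.6 PSI in DMSO to 74.4 and 70.0 with BRD6688 on 34 to 71 reads, with a limma adjusted p of 0.0116 (0.0011 to 0.121). This was the largest rise of the class with values in all 5 libraries, at 51.65 PSI (SD in DMSO 4.45, n = 3). The 69-nt exon of Syne2 (chr12:77201015-77201083, plus strand), a nesprin that ties the nucleus to the cytoskeleton, went from 49.0, 50.3 and 55.3 to 89.7 and 84.6, with a limma adjusted p of 0.0017 (0.000234 to 0.0636). Pop5, a subunit of RNase P, went from 49.6, 38.0 and 40.6 to 79.1 and 77.1 for an exon of 143 nt (limma adjusted p = 0.00418, range 0.00156 to 0.0853). In these 3 genes the BRD6688 values lay far above all DMSO values. The 45-nt exon of Myo18a, an unconventional myosin, stood at 36.3, 36.1 and 35.0 in DMSO and 66.2 and 69.3 with BRD6688 (limma adjusted p = 0.00955, range 0.000856 to 0.159). Cntnap1, an axonal protein of the paranode, had a 172-nt exon at 58.3, 66.5 and 69.0 in DMSO and 95.5 and 100 with BRD6688 (limma adjusted p = 0.0153, range 0.00861 to 0.135). Plch1, a phospholipase C, went from 62.5, 55.6 and 34.7 to 87.5 and 81.8 for an exon of 86 nt, without passing limma (adjusted p = 0.107, range 0.0699 to 0.317).

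Among longer exons called lower with values in all 5 libraries and no overlap, the largest falls were in Serp2 and Ntng2 and came with scattered controls. The largest fall called in the class, of 47.4 PSI, was not among these exons. Serp2, a protein of the endoplasmic reticulum, stood at 68.2, 51.8 and 87.7 in DMSO and 29.4 and 30.3 with BRD6688, and Ntng2, a netrin-G ligand of axons, at 59.9, 54.4 and 91.95 and then 38.1 and 32.8. Neither fall passed limma (adjusted p = 0.138 and 0.227). The other 4 of the 6 largest were in Letm2, Ralgapa2, Exoc1 and Igsf9, with differences of −19.4 to −23.8 PSI and limma adjusted p-values of 0.166 to 0.231. Exoc1, a subunit of the exocyst, thus had a 45-nt exon called lower (79.5, 79.2 and 64.9 against 55.8 and 51.7) and a 21-nt microexon called higher (4.22, 8.41 and 6 against 21.4 and 14.9). The exons called higher had shorter flanking introns (median 1080 nt upstream and 1081.5 nt downstream) than those called lower (2067 and 2122.5 nt), and all tested longer exons had medians of 1379 and 1300 nt. Longer exons with a DMSO mean PSI of 10 to 90 had medians of 1927 and 2127 nt, near those of exons called lower.

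**Figure D3:**
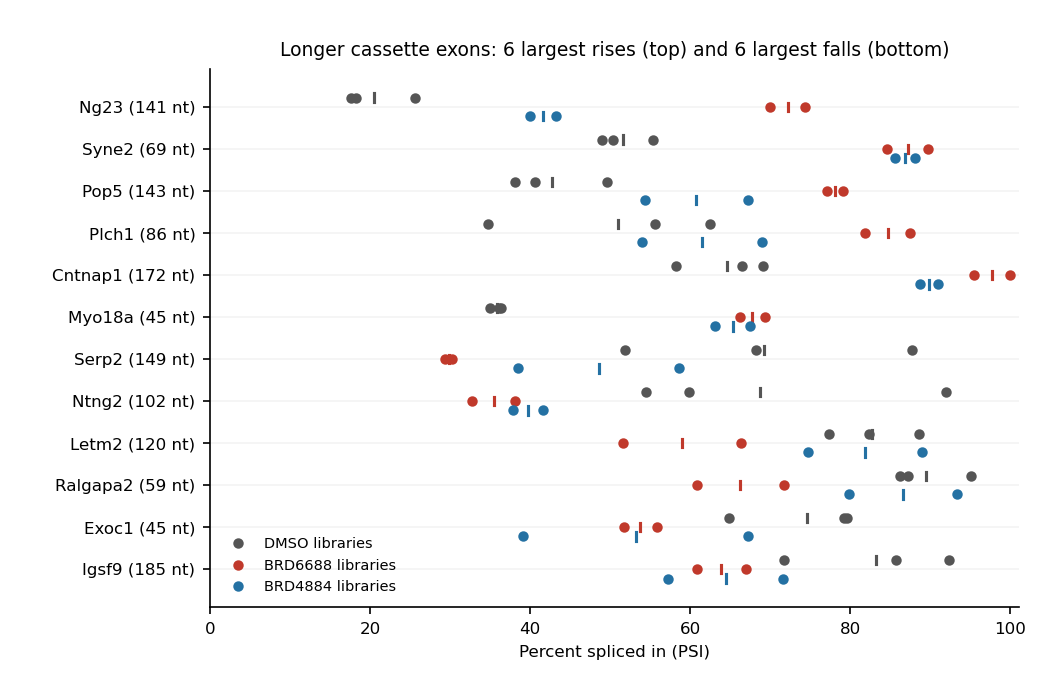
PSI (x axis, percent) of the 6 longer cassette exons with the largest rises and the 6 with the largest falls, 1 row each, in the DMSO (grey), BRD6688 (red) and BRD4884 (blue) libraries, with bars at group means. Exons were ranked among those called with values in all 5 libraries and no overlap with DMSO. The grey points of Serp2 and Ntng2 spread over more than 35 PSI, whereas those of Myo18a lie within 2 PSI.

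Alternative splice sites changed at both ends of introns. Of 14188 alternative 3′ site events 214 had a call (1.51%), and of 10256 alternative 5′ site events 245 had one (2.39%). The PSI of such an event is the share of transcripts that use a given site. Plcb3, a phospholipase C, used a 5′ site at 49.4, 44.0 and 37.8 PSI in DMSO and at 83.4 and 88.2 with BRD6688, with a limma adjusted p of 0.0116 (0.00653 to 0.135). Itga7, a laminin receptor, went from 3.15, 4.9 and 3.74 to 40.96 and 27.9 at its own 5′ site (limma adjusted p = 0.00579, range 0.00579 to 0.098). Med7, a subunit of Mediator, went from 27.4, 24.97 and 16.3 to 53.5 and 56.1 (limma adjusted p = 0.0233, range 0.00604 to 0.195). The groups did not overlap at any of these sites, which their choice required. Hnrnpk, an RNA-binding protein, went from 44.4, 40.55 and 65.4 to 81.95 and 89.5 (limma adjusted p = 0.0467, range 0.0278 to 0.242), and Rae1, an mRNA export factor, fell from 38.5, 50.7 and 51.5 to 18.7 and 21.5 (limma adjusted p = 0.0359, range 0.0232 to 0.224). Among 3′ sites Gpr137 went from 27.2, 19.7 and 21.5 to 61.6 and 56.3 (limma adjusted p = 0.0441, range 0.0147 to 0.243). The largest 3′ site difference, 46.9 PSI in Mbtd1, came from controls at 79.0, 33.96 and 2.63 against 85.5 and 85.4 with BRD6688, and had a limma adjusted p of 0.259 (0.187 to 0.495).

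Retained introns were called in both directions. Of 90246 introns, 233 were called higher (0.258%) and 325 lower (0.36%), of which 96 and 134 had values in all 5 libraries. Of the 233, 98 rested on 1 BRD6688 library, as did 89 of the 325. The 1818-nt intron of Arfgap1, a regulator of Golgi coats, went from 8.29, 7.66 and 3.24 to 38.3 and 53.4 PSI (limma adjusted p = 0.0175, range 0.00899 to 0.135). Lime1, a membrane adaptor, had a 95-nt intron that fell from 41.2, 58.4 and 45.5 to 7.41 and 5.88 (limma adjusted p = 0.021, range 0.0111 to 0.135). Both shifts kept the groups apart, which their choice required. Stx16, a Golgi syntaxin, stood at 47.8, 43.4 and 35.9 and then 77.4 and 80.0 (limma adjusted p = 0.0854, range 0.0175 to 0.273). A 246-nt intron listed under E130112L23Rik (chr14:52624418-52624663) went from 23.8, 16.4 and 10.2 to 53.9 and 35.3, and the 21-nt microexon called higher in Arhgef40 (chr14:52624554-52624574) lies within these coordinates.

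BRD6688 and BRD4884 were compared directly at 10 µM and 24 h, with no DMSO library in the posterior rule. Of 680 microexons, 18 were called different (2.65%), 10 higher with BRD6688 and 8 higher with BRD4884. Of 62062 longer cassette exons 592 were called (0.954%), and of 121742 events at alternative sites and introns 1175 (0.965%). The limma fit over all events called 0 (0.0%), with 11068 of 178168 at an unadjusted p below 0.05 (6.21%), and the fit at a mean PSI of 10 to 90 called 0 (0.0%), with 688 of 7438 at an unadjusted p below 0.05. For 48 of the 64 microexons called higher against DMSO, limma on PSI itself over all events gave an interval of the difference between the compounds. That fit called 3 events of all classes between the compounds. Adjusted p-values of single events between the compounds are from the fit on log2 odds over all events. The median difference was 0.732 PSI, from −11.6 to 16, and the smallest limma adjusted p on log2 odds was 0.423. The same BRD6688 libraries chose these microexons by their rise against DMSO, so this median can lean towards BRD6688. The 95% interval left out 0 for 3 of the 48 and lay wholly within 10 PSI of 0 for 16, with a median distance of 8.74 PSI from the difference to either bound. For the rest the interval reached past 10 PSI in at least 1 direction.

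Some microexons that differed between the compounds are named here after their values were seen. Clasp2 stood at 78.8 and 59.2 with BRD6688 and 52.4 and 53.7 with BRD4884, a difference of 15.96 PSI (95% interval −7.43 to 39.3), and Kcnma1 at 11.5 and 19.2 against 2.95 and 0, a difference of 13.9 (6.29 to 21.4). Iffo1 stood at 40.2 and 41.7 against 60.3 and 51.8, a difference of −15.1 (−34.3 to 4.04), and Ppfia2 at 48.4 and 41.8 against 60.8 and 52.6, a difference of −11.6 (−23.2 to 0.0036). Daam1, a formin that builds actin filaments, stood at 69.3 and 61.9 against 52.2 and 56.2, a difference of 11.4 (0.488 to 22.3). Each pair of compounds was apart in all 4 libraries, and none passed the limma fit on log2 odds over all events after adjustment. Among longer exons Ng23 had 74.4 and 70.0 against 43.3 and 40.0, a difference of 30.55 (21.002 to 40.1). Its limma adjusted p of 0.541 is from the fit on log2 odds over all events, not from the fit that gave the interval.

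Beside the other HDAC inhibitors, the 64 microexons called higher with BRD6688 stood above DMSO by a median of 14.3 PSI with BRD6688, of 14.2 with BRD4884 (61 measured, 42 of them at least 10 higher), of 13.9 with CI-994 (62 measured, 40) and of 11.7 with Vorinostat (60 measured, 33, with 2 others at least 10 lower). These differences share the DMSO libraries, and BRD6688 chose the microexons. The doses of CI-994 and Vorinostat differ from that of BRD6688, so no comparison was made. For the 5 microexons called lower the median difference from DMSO was −13.1 with BRD6688, −5.22 with BRD4884, −10.7 with CI-994 and −18.4 with Vorinostat.

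Gene expression levels were deposited as 1 RPKM value per condition. The study's own fold changes and p-values, from edgeR, were not used, so the ratios here have no replicate check and no p-value. With 0.5 RPKM added, 513 of 9979 genes over 5 RPKM in either condition were more than 2-fold higher with BRD6688 (5.14%) and 674 were more than 2-fold lower (6.75%). RPKM summed to 812414 in DMSO and 694551 with BRD6688, and the median log2 ratio of these genes was −0.19. Of the 513, 304 were over 5 RPKM with BRD6688 alone, and such a gene passed this limit only through its high value. When ratios were centred on this median, 711 genes were higher and 352 lower, and the share of lower genes among those past 2-fold went from 56.8% to 33.1%. List medians below are uncentred and are to be read against −0.19. Counts of list members past 2-fold are to be read against the 5.14% of all genes higher and 6.75% lower. The ratio also moved with transcript length, an order noticed after the data were seen. Over 5 equal groups of genes by transcript length, from the shortest to the longest, the median log2 ratio ran from −0.36 to 0.00 with BRD6688 and from −0.30 to −0.24 with BRD4884, and 324 genes of the shortest group and 22 of the longest were past 2-fold lower with BRD6688. Genes past 2-fold lower had a median transcript length of 733 nt, against 1138 nt for those higher and 1236 nt for all. The part of length in the results on genes was not tested.

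**Figure D4:**
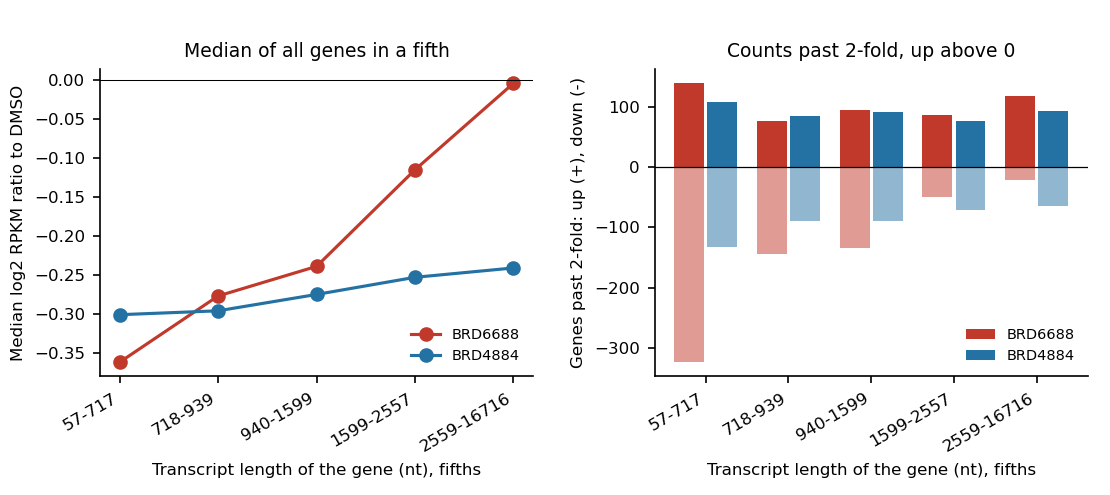
Left, median log2 RPKM ratio to DMSO (y axis) of genes over 5 RPKM with DMSO or BRD6688, in 5 equal groups of transcript length (x axis, nt), for BRD6688 (red) and BRD4884 (blue). Right, genes past 2-fold in each group, higher above 0 and lower below 0. The BRD6688 median ran from −0.36 to 0.00 and its lower genes from 324 to 22.

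The targeted enzymes themselves differed little. Hdac2 stood at 223 RPKM in DMSO and 229 with BRD6688, Hdac1 at 64.1 and 79.8, and Hdac3 at 40.7 and 30.2. Of 9 histone deacetylase genes over 5 RPKM, only Hdac11 was past 2-fold, at 6.75 and 15.6 RPKM, with a list median of 0.31. Among 36 genes of class I corepressor complexes Sin3a was past 2-fold higher (93.2 to 213) and Mbd3, a NuRD subunit, lower (44.0 to 17.4), with a median of −0.15. Among 21 acetyltransferases and readers of acetyl-lysine, Kat2a was past 2-fold lower (75.4 to 35.5) before centring, and the median was −0.18.

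Most regulators of neural splicing lay above the median gene, while SR proteins were lower. Of 28 neural splicing regulators over 5 RPKM, Celf5 was past 2-fold higher (2.94 to 6.65) and 0 were lower, with a median of 0.03. Of these regulators 19 lay above the median gene and 9 below. Srrm4 stood at 10.4 and 15.4 RPKM, Srrm3 at 18.5 and 29.3, and Ptbp1 at 476 and 408, all within 2-fold. SR proteins, which bind exonic enhancers, and the related Tra2 proteins had 12 genes over 5 RPKM, all below the median gene, with a median of −0.71. Srsf3 (440 to 187) and Srsf7 (237 to 102) were past 2-fold lower, with and without centring (beside 6.75% of all genes without it). The 58 genes over 5 RPKM that carried a microexon called higher had a median log2 ratio of 0.22, against 0.07 over 505 genes with a tested microexon. Of the 58, 1 was past 2-fold higher, Cers6 (listed as Lass6 in the splicing table), and 0 were lower.

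Genes of proliferation and of the integrated stress response lay mostly below the median gene. Of 38 cell cycle and DNA replication genes 7 were past 2-fold lower (beside 6.75% of all genes) and 0 higher, 33 lay below the median gene, and the list median was −0.67. They were Cdk1 (667 to 236), the mitotic kinase, its cyclin Ccnb1 (340 to 139), the replication clamp Pcna (353 to 152), Rrm2 (96.0 to 41.4), Birc5 (211 to 91.7), Tk1 (69.4 to 32.9) and Ccne2 (136 to 64.1), and 5 of the 7 stayed past 2-fold after centring. Mki67 stood at 70.2 and 87.9. Of 7 D-type cyclins and CDK inhibitors Cdkn1a (p21) was past 2-fold higher, from 11.6 to 34.0 RPKM, and 0 were lower. Of 16 genes of the integrated stress response, which the factor Atf4 drives when translation is restrained, 5 were past 2-fold lower (beside 6.75% of all genes) and 0 higher, with a median of −0.76. These were Trib3 (18.1 to 5.91), Nupr1 (77.0 to 30.4), Chac1 (35.6 to 15.3), Mthfd2 (208 to 95.1) and Atf4 (309 to 146), 3 of which stayed past 2-fold after centring. The transcripts of both lists are short, with medians of 818 and 783 nt against 1483 nt for SR proteins.

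Genes of the sympathetic lineage and of neurons lay mostly above the median gene. N2A cells are neuroblastoma cells, and the noradrenergic lineage genes Hand2 (248 and 260) and Phox2a (78.9 and 117) were expressed in both conditions. Of 14 lineage genes over 5 RPKM, 3 were past 2-fold higher (beside 5.14% of all genes) and 0 lower, with a median of 0.55. They were Dbh, which makes noradrenaline (11.4 to 27.1), Gata2 (47.9 to 107) and Gata3 (7.34 to 15.9), and 5 were past 2-fold after centring. Of 33 neuronal and synaptic genes 3 were past 2-fold higher (beside 5.14%) and 0 lower, with a median of 0.37 and 28 above the median gene. These were the vesicle proteins Syp (57.8 to 175) and Syn1 (18.03 to 37) and the secretogranin Scg2 (112 to 283), whereas Tubb3 stood at 396 and 295, and 7 were past 2-fold after centring.

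**Figure D5:**
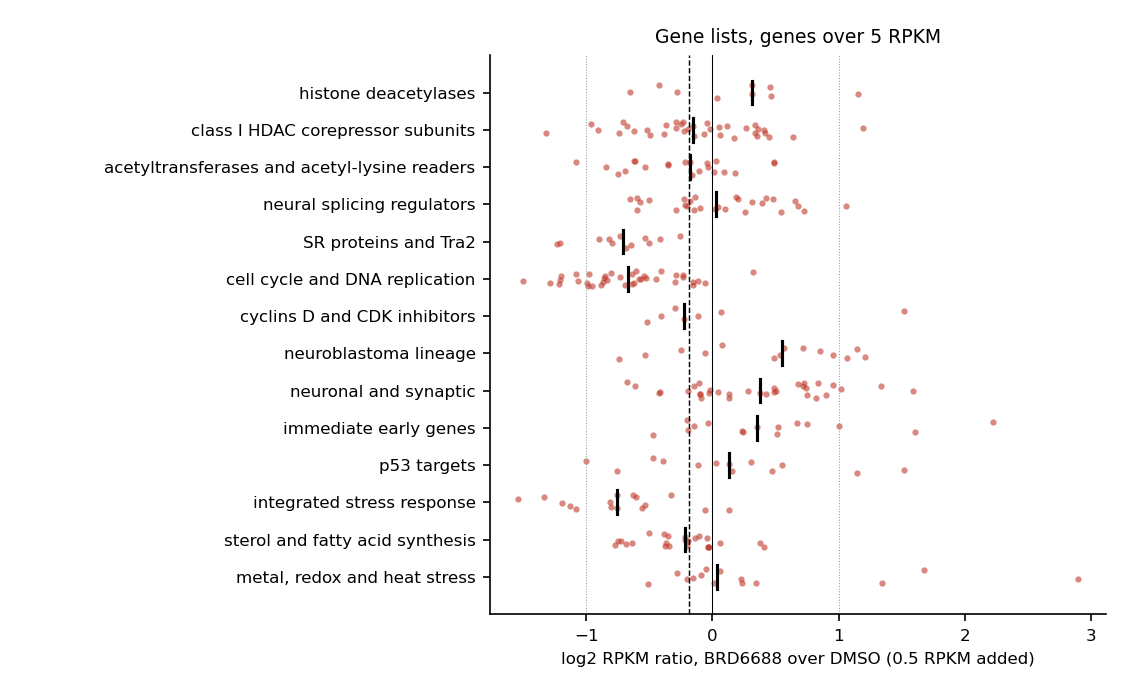
Log2 ratio of RPKM with BRD6688 over DMSO (x axis, 0.5 RPKM added) for genes over 5 RPKM, 1 row per list. Points are genes and bars list medians, the dashed line is the median of all genes (−0.19), and the dotted lines mark 2-fold. The medians of SR proteins (−0.71), the cell cycle (−0.67) and the integrated stress response (−0.76) lie below the dashed line.

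Of 15 immediate early genes, which answer growth signals within minutes, Ier3 (5.57 to 17.96) and Nr4a3 (1.04 to 6.67) were past 2-fold higher (beside 5.14% of all genes). In this list 0 were past 2-fold lower, the median was 0.35 and 12 lay above the median gene. Of 13 p53 targets Cdkn1a and the polymerase Polk (15.2 to 34.3) were higher and Bax (88.9 to 44.1) lower before centring, with a median of 0.13. Of 14 genes of metal, redox and heat stress, Clu (1.06 to 11.1), Mt3 (6.98 to 23.4) and Txnip (7.45 to 19.7) were past 2-fold higher (beside 5.14% of all genes). In this list 0 were past 2-fold lower and the median was 0.04. Celf5, Nr4a3 and Clu were among the genes over 5 RPKM with BRD6688 alone. Sterol and fatty acid synthesis had 0 of 24 past 2-fold and a median of −0.22, near that of all genes. Of 11 linker and variant histone genes H2afz (561 to 265) and H3f3a (672 to 326) were past 2-fold lower before and not after centring. Of 3 germline genes over 5 RPKM none was past 2-fold (0 higher, 0 lower).

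Markers of other cell types were low in both conditions, with exceptions. The astrocyte, oligodendrocyte, epithelial, haematopoietic and liver lists had 0 genes over 5 RPKM, and each list summed to at most 3.3 RPKM in either condition. Of 7 muscle genes Myh3 alone passed 5 RPKM (27.99 and 31.9), with Myod1 listed at 0. Among 7 mesenchymal genes Fn1, fibronectin, stood at 49.0 and 214 RPKM and Pdgfra at 0.46 and 5.56, while Vim was at 750 and 653, Col1a2 at 0.02 and 0.08 and Col3a1 was listed at 0 in both. The part of such cells in the results was not tested.

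Most of the largest rises were from low levels in DMSO. Among genes over 0.1 RPKM in both conditions, Fblim1, a filamin-binding adhesion protein, went from 0.46 to 15.3 RPKM, Mr1, an antigen-presenting molecule, from 0.19 to 9.41, and S100a11, a calcium-binding protein, from 1.17 to 22.03. Adgrg1, an adhesion receptor, went from 0.39 to 10.6 and the Ras regulator Rasa4 from 0.48 to 9.83. The glutathione transferases Gstt1 (0.13 to 6.97) and Gsta4 (0.26 to 7.92) stood beside them. With BRD4884 these 7 genes stood between 9.22 and 79.1 RPKM, so they were high with both compounds. Clone-named genes and the histone genes Hist1h2ak, Hist1h3e and Hist2h3b completed the list. RP23-81C12.3 went from 357 to 6361 RPKM and was at 321 with BRD4884 and 6765 with CI-994, and RP24-124B23.7 went from 1.1 to 23.7. The study's quantification assigns reads among transcripts of like sequence, so values of single clone-named genes and histone genes are uncertain.

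Clustered histone genes, examined after their place among the largest rises was seen, stood at a higher summed level. Replication-dependent histone mRNAs end in a stem-loop and mostly lack a polyA tail, and the libraries were selected on polyA. Of 69 such genes 7 were over 5 RPKM in DMSO, of which 3 were past 2-fold higher with BRD6688 and 0 lower. The 69 summed to 124 RPKM in DMSO, 406 with BRD6688, 232 with BRD4884 and 247 with CI-994. Hist1h2ak stood at 0.76 in DMSO, 17.2 with BRD6688 and 0.78 with BRD4884, and Hist1h3i at 3.61, 32.5 and 14.3. The linker histone Hist1h1a stood at 6.76, 31.4 and 24.6.

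The largest falls held several clone-named genes and short transcripts. RP23-411B11.2 went from 13.1 to 0.3 RPKM and RP23-10G21.3 from 363 to 50.5. Among genes with other names Rps27, a ribosomal protein, went from 61.2 to 11.7, the cytokine subunit Il23a from 38.8 to 8.87, the nucleolar chaperone Npm3 from 64.6 to 15.1 and the nucleosome-binding Hmgn2 from 504 to 126. Beyond the 12 largest, and named after their values were seen, the U6 snRNP proteins Lsm3 (146 to 38.7) and Lsm7 (377 to 103), the proteasome subunit Psmb10 (60.6 to 15.6) and the kinase Cdk4 (460 to 145) were also more than 3-fold lower. With BRD4884 these 4 stood at 59.0, 162, 23.9 and 147 RPKM. The RPKM values merge the replicate libraries of each condition, so the difference between the compounds has no estimate of error.

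Between the compounds, 89 of 10151 genes over 5 RPKM were more than 2-fold higher with BRD6688 than with BRD4884 (0.877%) and 120 more than 2-fold lower (1.18%), with a median log2 ratio of 0.06. Among genes over 0.1 RPKM with both compounds, 4 of the 8 largest in the first direction were histone genes (Hist1h2ak, Hist2h3b, Hist1h3e and Hist1h4d) and the others clone-named. In the second direction Nts, the neurotensin precursor, stood at 0.03 RPKM in DMSO, 1.1 with BRD6688 and 6.09 with BRD4884, and Mgst1, a microsomal glutathione transferase, at 0.02, 0.92 and 6.54.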

How the data were processed

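The authors made the splicing table with vast-tools (mm9 per the submitters' processing notes). Its deposited PSI is a percent per event and library, with a quality string, treated as other text, that holds inclusion and exclusion reads. Deposited RPKM came from Salmon estimates on GENCODE vM21 transcripts summed to genes, with the libraries of a condition merged. Salmon 0.10.2 stands in the submitters' processing notes. The authors' log2 fold changes, p-values, FDR and pooled PSI were not used.

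The study's filters were applied: sufficient coverage and balance for exons, and for introns 15 or more reads with a balance p over 0.05. An event needed at least 1 of 2 BRD6688 and 2 of 3 DMSO libraries. Posteriors used 4000 draws per library from a beta distribution of reads plus 1, averaged over the libraries of a group. limma 3.58.1 (R 4.3.3) used log2 odds with 0.5 reads added, a variance trend on reads and Benjamini-Hochberg adjustment over all events. Both rules were run on simulated reads with known shifts and no spread between libraries beyond counting error. That run cannot show how the rules behave under such spread. A test of 3 against 2 libraries by exact permutation cannot go below p = 0.1, so none was run.

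The numbers of reads limit precision, and the p-values cover the spread between these libraries. Replicate letters did not pair samples: deviations of same-lettered BRD6688 and DMSO libraries correlated at 0.0107 over 2400 exons.

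Named events are, per class, the largest changes among those called, with values in all 5 libraries and no overlap (12 microexons, otherwise 6 in each direction), all microexons called lower, and those assayed by the study. Named genes are list members past 2-fold and the 12 largest changes each way. Members, lists and these rules were chosen with earlier results of these data known. Alternatives covered thresholds, coverage, each library left out, the replicate block, pseudocounts and centring. Some named items are not reported here.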

Additional observations from a re-analysis of the deposited data

How the results depend on the processing

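Of 169 recomputed counts 118 stayed within 1.5 times the reported value. With a minimum difference of 15 PSI, BRD6688 against DMSO gave 29 microexons higher and 2 lower, 186 longer exons higher and 70 lower, 82 alternative 3′ and 117 alternative 5′ events, and 111 introns higher and 157 lower, and BRD6688 against BRD4884 gave 7 microexons, 222 longer exons and 597 other events. With a posterior above 0.99, introns were 125 higher and 202 lower, and the direct comparison gave 11 microexons and 646 other events. With stricter coverage, there were 160 alternative 5′ events, 133 introns higher and 167 lower, and 699 other events in the direct comparison. With values required in all libraries, there were 135 longer exons lower, 132 alternative 3′ and 163 alternative 5′ events, 96 introns higher and 133 lower, and 11 microexons and 676 other events between the compounds. When each library kept its own draws, an alternative chosen after seeing the data, there were 49 microexons higher and 3 lower, 132 longer exons lower, 103 alternative 3′ and 134 alternative 5′ events, 93 introns higher and 127 lower, and 7 microexons, 379 longer exons and 566 other events between the compounds. Of microexons up to 15 nt, 25 were higher and 3 lower. The cause of these moves was not tested beyond the stricter thresholds and fewer events they apply.

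With 1 library left out in turn, the counts against DMSO were 57 to 73 microexons higher and 6 to 7 lower, 493 to 544 longer exons higher and 247 to 368 lower (363 without BRD6688 A and 368 without B), 263 to 316 alternative 3′ and 282 to 317 alternative 5′ events, and 247 to 337 introns higher and 280 to 435 lower. Between the compounds they were 18 to 25 microexons, 708 to 813 longer exons and 1187 to 1404 other events. The limma fit over all events called 0 in every such fit, 0 with the replicate block, and 17 on PSI itself (3 between the compounds). The 6 limited fits called 5, 65 and 156 events on log2 odds and 156, 203 and 225 on PSI itself, from the widest to the narrowest range. The narrowest on log2 odds with the replicate block called 38, and the letters do not pair the samples. Genes past 2-fold higher were 1121 over 1 RPKM and 316 over 10 RPKM, and 352 were lower after centring. Of 741 values of named events 714 kept their call, 26 lost it and Cyth1 reversed to 0.353 PSI without BRD6688 A (−22.4 without B). Of 372 values of named genes 355 kept their side of 2-fold. Events with few reads, and introns most of all, have the least precise PSI.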
